A study of Mus musculus with 6 samples.

Results

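The 4 enzymes Bdh1, Bdh2, Oxct1 and Acat1, which make or use ketone bodies, were followed in transferred mouse lung fibroblasts as 4 of the 19865 gene symbols counted. Bdh1 was picked for its very large rise in the trSrebf1 cells. The other 3 were added for their place in the same pathway. Library values of Bdh1 are therefore given as a description, with no test. Cells were isolated from lungs of C57BL/6 mice carrying the Col1a2-GFP transgene, in which the Col1a2 promoter drives a green fluorescent protein. They were transduced by retrovirus either with trSrebf1, a truncated and active Srebf1c (a factor that switches on lipid synthesis), or with a control vector, with hLNGFR, a human surface receptor, as the vector marker. In both groups 5000000 transduced cells were put into the airways of C57BL/6 mice on day 5 after 2 mg/kg of bleomycin, which injures lung tissue. Doxycycline, which induces trSrebf1, is recorded from day 7 for both groups. On day 10, live GFP-positive and hLNGFR-positive cells that lacked CD45, CD31, EpCAM, CD146 and Ter119 were sorted, and 10000 cells went into each 3'SAGE-seq library, an assay that counts 1 short sequence tag per captured polyadenylated transcript, cut close to its 3' end. There were 3 trSrebf1 and 3 control libraries, and no label states if replicates came from separate mice or cultures, so a p-value here speaks only of library-to-library spread, which could be technical.

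Ketone bodies are small fuels that liver mitochondria make from acetyl-CoA during fasting and that other tissues burn. In their formation Acat1 joins acetyl-CoA units into acetoacetyl-CoA, further mitochondrial steps turn this into acetoacetate, and Bdh1, a lipid-dependent enzyme of the inner mitochondrial membrane, reduces acetoacetate to beta-hydroxybutyrate. In their use Bdh1 runs backwards, Oxct1 loads acetoacetate with CoA taken from succinyl-CoA, and Acat1 splits the product to acetyl-CoA. Bdh2 is a cytosolic dehydrogenase that has been given a part in ketone use and in the making of an iron-binding siderophore.

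Library totals ran from 4151691 to 4688196 counts in trSrebf1 and from 3675146 to 4134354 in control, so that 1 count stood for between 0.214 and 0.261 CPM (tag counts scaled to library size with TMM factors). Srebf1 itself gave 133, 123 and 108 tags in trSrebf1 and 32, 20 and 33 in control (log2 fold change 1.98, SE 0.23, edgeR adjusted p = 2.88e-06). The 3' end of truncated trSrebf1 is not given in the labels, so endogenous and transgene transcripts cannot be told apart in these tags, and Srebf1 exons share 109 bases with Rai1 on the opposite strand. The summed fibroblast markers (8 of 8 listed genes had counts) lay between 20262 and 23173 CPM in trSrebf1 and between 28638 and 33599 in control. Single markers went different ways. Col1a2, Col3a1, Pdgfra, Dcn, Lum and Thy1 were lower in every trSrebf1 library than in any control library, and Col1a1 overlapped. Pdgfrb was higher, at 130.5 to 150.7 CPM in trSrebf1 and 72.7 to 85.0 CPM in control. Of other cells, the epithelial markers (7 of 7) summed to between 6.82 and 20.5 CPM in trSrebf1 and between 7.57 and 13.6 CPM in control, and the macrophage markers (3 of 6) to between 0.214 and 0.757 CPM in trSrebf1 and between 0.469 and 2.61 CPM in control. The endothelial (4 of 5), erythroid (5 of 6) and lymphocyte (1 of 4) markers stayed at or below 2.05 CPM in every trSrebf1 library and 1.80 CPM in every control library. The only hepatocyte marker with a row, Apoa1 (1 of 4), had 4 tags in trSrebf1 and 2 in control.

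Bdh1 (chromosome 16, 31422280 to 31458901, plus strand, GRCm38; ENSMUSG00000046598.15) was counted at 1309, 1036 and 1216 tags in trSrebf1 fibroblasts and 3, 7 and 3 tags in control fibroblasts. The groups did not come near each other, and every trSrebf1 library held at least 1036 tags where no control library held more than 7. The mean was 272.7 ± 9.81 CPM in trSrebf1 and 1.09 ± 0.610 CPM in control (SD, n = 3 each), a ratio of 249 and a fitted log2 difference of 7.93. Since the control group rests on 13 tags in all, the ratio of pooled tags, 252, is imprecise. Its 95% Clopper-Pearson interval is 147 to 474 from counting error alone. This takes each amplified tag as an independent molecule, although the labels name no molecular identifiers. The interval leaves out spread between libraries and, with Bdh1 picked for its rise, is no test. Among the 10194 genes that passed the filter on low counts, Bdh1 ranked 18th from the top by log2 difference. Where a gene had 0 control tags, its log2 difference and rank depend on the prior count of 0.125 that the fit adds. By mean CPM it was at rank 572 of 19865 symbols in trSrebf1 and at rank 11692 in control. In bulk libraries fewer cells carrying a transcript and less of it per cell cannot be told apart.

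**Figure D1:**
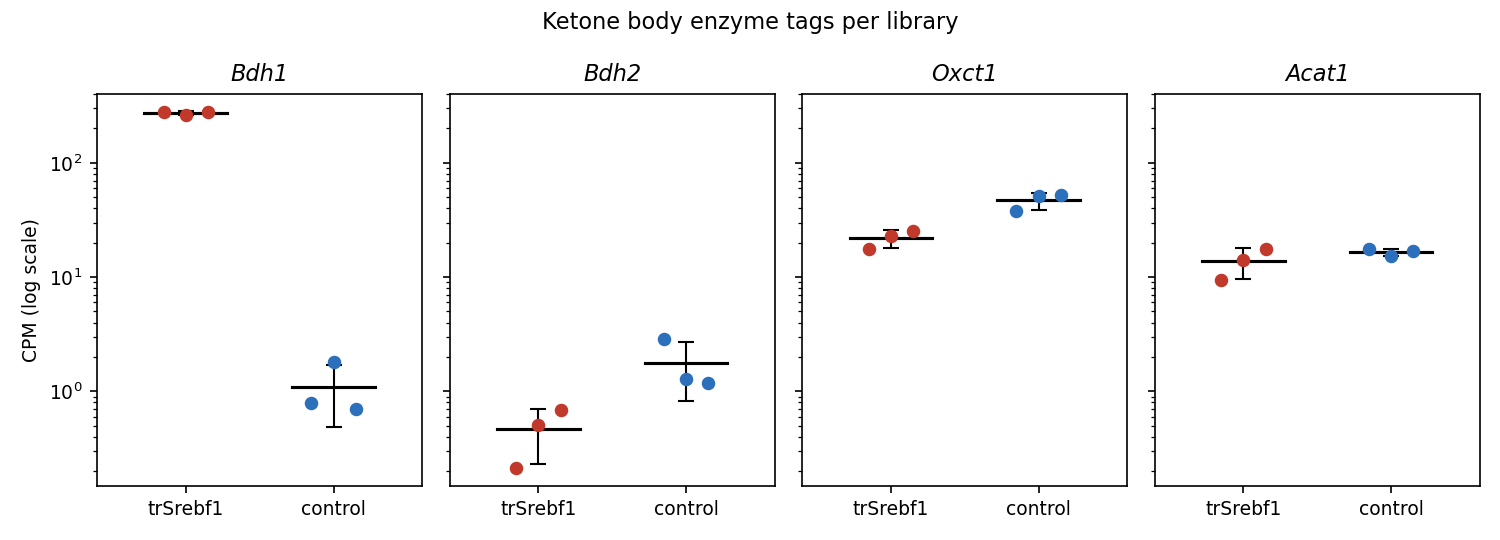
CPM on a log scale (vertical axis) of the 4 enzymes in the 3 trSrebf1 libraries (red, left in each panel) and the 3 control libraries (blue, right), with the mean as a bar and the SD as whiskers. Bdh1 averaged 272.7 CPM in trSrebf1 and 1.09 CPM in control, Oxct1 was lower in trSrebf1, and the values of Acat1 overlapped.

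Bdh1 has annotated starts in more than 1 place, and the region before each is shown because the letters there are what a transcription factor such as SREBP would read. SREBP factors are known to bind sterol response elements and E-boxes beside NF-Y and Sp1 sites. Below are 250 bases before and 50 after the start, from RefSeq (GRCm38.p6, plus strand). They cover both Bdh1 starts held there and Oxct1, with the match to a searched motif in capitals. In GENCODE the protein-coding transcripts Bdh1-202 and Bdh1-206 start 551 and 7343 bases after the second start. The regions before those were not searched.
Bdh1, first start, chr16:31422047-31422346: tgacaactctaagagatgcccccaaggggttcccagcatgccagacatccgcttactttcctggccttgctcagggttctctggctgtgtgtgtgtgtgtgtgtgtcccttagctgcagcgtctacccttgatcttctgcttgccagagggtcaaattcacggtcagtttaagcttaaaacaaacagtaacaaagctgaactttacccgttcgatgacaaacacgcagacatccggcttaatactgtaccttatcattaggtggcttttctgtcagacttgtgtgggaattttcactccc
Bdh1, second start, chr16:31428503-31428802: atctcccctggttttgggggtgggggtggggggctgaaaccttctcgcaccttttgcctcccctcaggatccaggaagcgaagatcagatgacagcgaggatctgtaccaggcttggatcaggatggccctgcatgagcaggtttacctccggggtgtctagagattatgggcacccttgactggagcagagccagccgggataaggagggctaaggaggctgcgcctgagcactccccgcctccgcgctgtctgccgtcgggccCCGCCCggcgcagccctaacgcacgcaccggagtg
Oxct1, chr15:4026178-4026477: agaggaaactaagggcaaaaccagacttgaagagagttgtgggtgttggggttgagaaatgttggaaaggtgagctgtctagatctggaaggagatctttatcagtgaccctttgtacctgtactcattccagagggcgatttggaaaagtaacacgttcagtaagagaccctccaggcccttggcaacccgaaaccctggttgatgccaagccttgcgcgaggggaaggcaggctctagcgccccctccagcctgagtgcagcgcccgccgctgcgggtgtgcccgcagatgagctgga
Both strands were searched for TCACNCCAC (sterol response element), CACGTG (E-box), CCAAT (NF-Y), GGGCGG (Sp1) and a PPAR element (AGGTCA, any 1 base, AGGTCA), none of which overlapped in these windows. The capitals in the second Bdh1 window are the reverse complement of GGGCGG, starting 15 bases after the transcript start, and were the only match in the 3 windows printed. Bdh2, which has an entry as well, held 1 CCAAT on the minus strand, 141 bases before its start, and 3 of the 4 enzymes had an entry (Acat1 is named only). Of 32544 distinct windows of this length, 35.9% held GGGCGG, 37.4% CCAAT, 7.17% CACGTG, 1.24% TCACNCCAC and 0.04% the PPAR element. Among genes called higher below, Hmgcs1 held 1 TCACNCCAC and Fgf21 1 CACGTG. The windows of Acat2, Aacs, Echs1 and Cpt1a, also called higher, held neither. Those of Srebf1 held neither as well, but its endogenous and transgene tags cannot be told apart. CACGTG also stood in windows of Slc16a1, Mccc2, Cul5, Dlg1 and AW549877, none of which passed the threshold. A link between these letters and a rise was not tested. Only exact letters in these windows were searched, so sites elsewhere or with other letters would be missed. The second Bdh1 window was 63.7% G or C and the first 48.3%, where the median window was 53%.

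An antisense gene lies across the second Bdh1 start and its tags appeared in the same libraries. Gm15743 (chromosome 16, 31427876 to 31429776, minus strand) shares 533 exonic bases with Bdh1, and its annotated 3' end lies 872 bases before the second Bdh1 start. It was singled out after its values were seen, and no test is given for it, since its tags may not be independent of Bdh1. It had 50, 24 and 30 tags in trSrebf1 and 0, 0 and 0 in control. The groups did not overlap, and with 3 counts over the control group as the floor its mean of 7.86 ± 2.49 CPM in trSrebf1 (SD, n = 3) was at least 31.4-fold higher than in control. This mean was 2.88% of that of Bdh1. Use of strand in the counting is not given in the sources used here, so tags of Gm15743 and of Bdh1 exons near that start cannot be told apart there. The annotated 3' ends of protein-coding Bdh1 transcripts, where its own tags are expected, lie between 28002 and 30153 bases beyond that start.

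**Figure D2:**
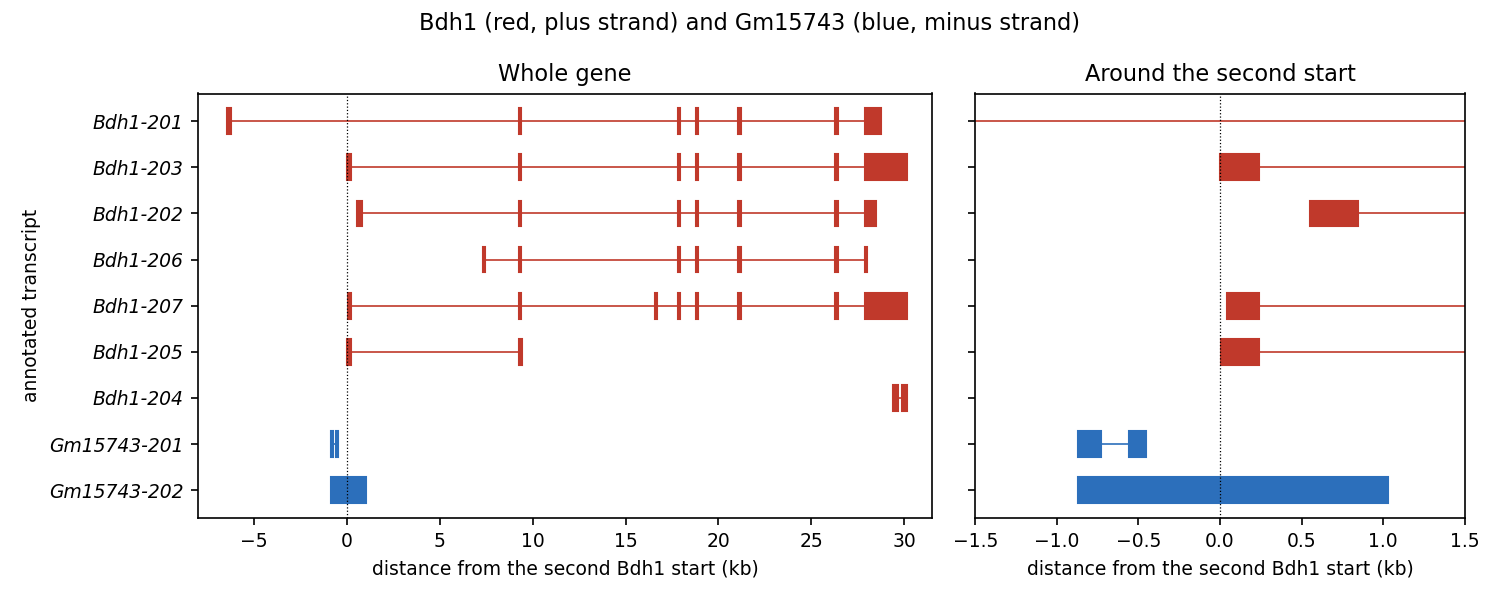
Annotated transcripts of Bdh1 (red, 7 transcripts, plus strand) and Gm15743 (blue, 2 transcripts, minus strand) as boxes for exons and lines for introns, with distance in kb from the second Bdh1 start on the horizontal axis, over the whole gene (left) and near that start (right). The longer Gm15743 transcript covers the start at 0, and the 3' ends of the protein-coding Bdh1 transcripts lie at the far right of the whole-gene panel.

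The 4 nearest tested protein-coding genes, on both sides of Bdh1, did not pass the threshold. Dlg1, a scaffold gene 204542 bases beyond it, had a mean of 50.8 CPM in trSrebf1 and 62.0 CPM in control (log2 fold change -0.29, SE 0.14, edgeR adjusted p = 0.133). Apod, a lipid-binding apolipoprotein gene 107489 bases before it, had 3.90 CPM in trSrebf1 and 3.13 CPM in control (log2 fold change 0.33, SE 0.40, edgeR adjusted p = 0.593). The 3' end of Apod holds a stretch that matches 60 other genes, over 54 bases at the longest, so its value is uncertain.

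Bdh2 (chromosome 3, 135281221 to 135304426, plus strand; ENSMUSG00000028167.15), the cytosolic dehydrogenase, was scarce in both groups. It had 1, 2 and 3 tags in trSrebf1 and 11, 5 and 5 in control. The highest trSrebf1 library stayed under the lowest control library, but the gene did not pass the filter on low counts and was not in the main test. Its mean was 0.467 ± 0.236 CPM in trSrebf1 and 1.78 ± 0.949 CPM in control (SD, n = 3 each), a log2 ratio of -1.93. The exact two-sided permutation p of the CPM was 0.1, the smallest that 3 against 3 libraries allow, and with no filter on low counts edgeR gave an adjusted p of 0.123 over all genes. From 6 and 21 tags the pooled ratio of 0.263 had a Clopper-Pearson interval of 0.0868 to 0.673 from counting error alone. This interval takes all tags of a group as independent and leaves out spread between libraries, so it does not show that Bdh2 was lower. Of the tags of both dehydrogenases, Bdh1 held between 99.8% and 99.9% in the trSrebf1 libraries and between 21.4% and 58.3% in the control libraries.

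Oxct1 (chromosome 15, 4026383 to 4155344, plus strand; ENSMUSG00000022186.14), the transferase that commits acetoacetate to oxidation, fell in trSrebf1. It had 83, 90 and 111 tags in trSrebf1 and 145, 198 and 221 in control. All 3 trSrebf1 libraries lay below all 3 control libraries. The mean was 21.9 ± 3.80 CPM in trSrebf1 and 46.8 ± 7.82 CPM in control (SD, n = 3 each). The log2 fold change was -1.10 with an SE of 0.18, and edgeR's quasi-likelihood test gave an adjusted p of 1.61e-04. Of all tested genes, this test called 13.0% lower and 30.2% changed in either direction. All trSrebf1 libraries lay below all control libraries for 20.2% of tested genes and above them for 23.1%, so that the groups stood apart in either direction for 43.4%. An antisense gene across the first Oxct1 exon, BC037032, had 0 tags in trSrebf1 and 1 in control.

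Acat1 (chromosome 9, 53580522 to 53610382, minus strand; ENSMUSG00000032047.5), the mitochondrial thiolase that stands at both ends of the pathway and also finishes isoleucine breakdown, did not pass the threshold. It had 44, 56 and 78 tags in trSrebf1 and 67, 59 and 72 in control. The trSrebf1 libraries were more spread out than the control libraries and the groups overlapped. The mean was 13.8 ± 4.17 CPM in trSrebf1 and 16.5 ± 1.21 CPM in control (SD, n = 3 each), and the log2 fold change was -0.27 with a 95% interval of -0.77 to 0.24 (edgeR adjusted p = 0.451). Thus 3 of the 4 enzymes entered the test. Leaving out Bdh1, which was chosen on it, 1 fell and 1 did not pass. No last 500 bases of a protein-coding transcript of the 4 matched another gene over 50 or more bases at 95% identity or more. Shorter matches were not counted, so this does not show that each short tag is unique to its gene.

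The order of the 4 enzymes by tag level differed between the groups only in the place of Bdh1. Because Bdh1 was picked for its rise, this difference and its share of the summed CPM follow from that choice. Oxct1, Acat1 and Bdh2 stood in the same order in both groups. The assay takes 1 end per transcript, so CPM was not divided by length, but how well a tag is recovered may differ between genes. In trSrebf1 Bdh1 was highest at 272.7 CPM, then Oxct1 at 21.9, Acat1 at 13.8 and Bdh2 at 0.467, and the libraries of Oxct1 (17.8 to 25.2 CPM) and Acat1 (9.42 to 17.7) nearly touched. In control Oxct1 was highest at 46.8 CPM, then Acat1 at 16.5, Bdh2 at 1.78 and Bdh1 at 1.09, with the libraries of Bdh2 (1.17 to 2.87 CPM) and Bdh1 (0.704 to 1.80) overlapping. Bdh1 made up between 86.4% and 91.1% of the summed CPM of the 4 in trSrebf1 libraries and between 0.997% and 2.60% in control libraries.

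**Figure D3:**
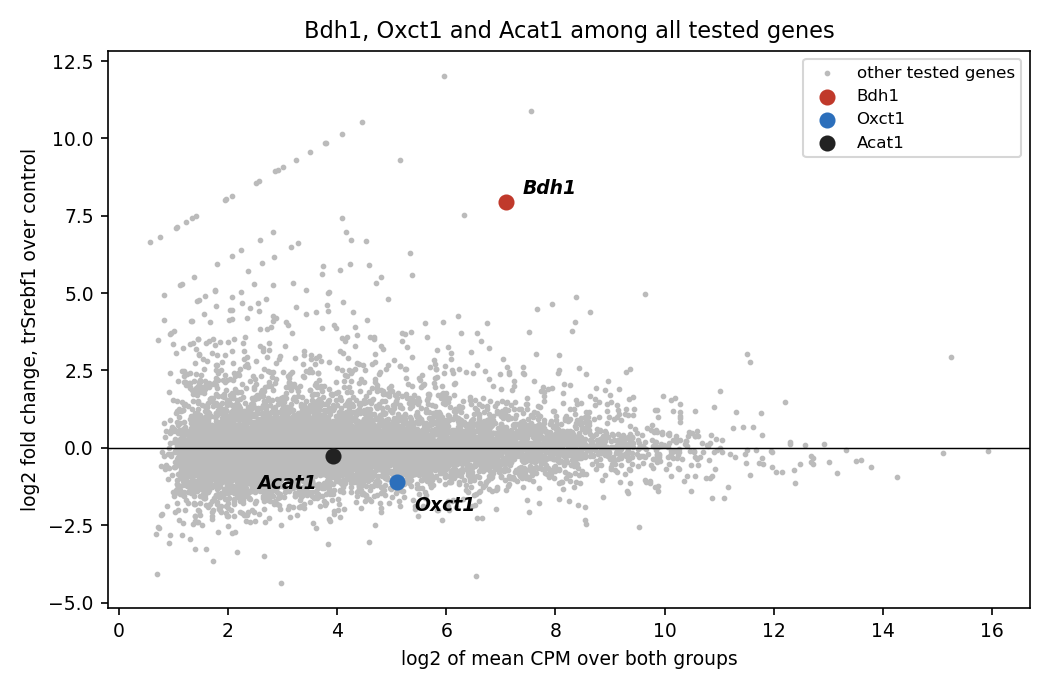
The log2 fold change of trSrebf1 over control (vertical axis) against the log2 of the mean CPM over both groups (horizontal axis) for all 10194 tested genes in grey, with Bdh1 in red, Oxct1 in blue and Acat1 in black. Bdh1 stands at 7.93, above nearly all genes of its level, while Oxct1 and Acat1 lie within the grey cloud at -1.10 and -0.27.

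Of the other genes of ketone formation and use reported here, Aacs was tested and rose, where all tested genes had a median log2 fold change of -0.01 and 17.2% of them were called higher. Aacs, a cytosolic ligase that sends acetoacetate into lipid synthesis, had 255, 198 and 221 tags in trSrebf1 and 116, 107 and 166 in control. The mean was 51.6 ± 2.58 CPM in trSrebf1 and 32.2 ± 5.99 CPM in control (SD, n = 3 each). It rose by 0.68 on the log2 scale (SE 0.16, edgeR adjusted p = 0.00383), and the groups did not overlap in CPM. Hmgcll1, an extramitochondrial lyase, had 8 tags in trSrebf1 and 5 in control and was not tested, and Oxct2a and Oxct2b were not analysed here.

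Of the genes for ketone body transport and sensing, 4 were tested, the carriers Slc16a1 and Slc16a3 and the partner proteins Bsg and Emb, and none of the 4 passed in either direction (median log2 fold change 0.02). At an unadjusted p under 0.05, 0 of the 4 passed in edgeR, and DESeq2 and limma-voom also called 0 of them. Slc16a1, the monocarboxylate transporter that carries ketone bodies in most tissues, had 130, 30 and 98 tags in trSrebf1 and 72, 70 and 27 in control, and its libraries were widely spread in both groups. The lactate exporter Slc16a3 averaged 73.1 ± 8.89 CPM in trSrebf1 and 75.6 ± 11.9 CPM in control (SD, n = 3 each; log2 fold change -0.05, 95% interval -0.36 to 0.26), with a sign that turned in 4 of 15 alternative settings. Bsg, the chaperone of these carriers, stood at 6312 ± 494 CPM in trSrebf1 and 5922 ± 285 CPM in control (SD, n = 3 each), with a 95% interval of the log2 fold change from -0.11 to 0.29. Of 10 listed genes 6 had a row, Slc16a6 and Slc16a7 had 4 or fewer tags each, and Slc5a8, Hcar1, Hcar2 and Ffar3 were not analysed here.

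Of 8 thiolases and HMG-CoA enzymes tested, 3 rose and 5 did not pass (median log2 fold change 0.19), where 17.2% of all tested genes were called higher, and the 3 that rose were Acat2, Acat3 and Hmgcs1. The cytosolic thiolase Acat2 had 346, 282 and 288 tags in trSrebf1 and 18, 20 and 27 in control, and rose by 3.69 on the log2 scale (SE 0.19, edgeR adjusted p = 1.48e-10). Acat3, its neighbour copy, rose by 3.13 (SE 0.32, edgeR adjusted p = 1.18e-06), and by 3.91 without control replicate 3. The 3' ends of the pair match over 353 bases at 98.6% in some transcripts, and Acat3 shares 571 exonic bases with Tcp1 on the opposite strand, so the split of tags is uncertain. Hmgcs1, the cytosolic HMG-CoA synthase of the sterol route, rose by 1.34 (SE 0.35, edgeR adjusted p = 0.00753), a call that was lost when trSrebf1 replicate 1 was left out (adjusted p = 0.0522, the highest of the alternatives, the lowest being 8.87e-04). Hmgcs1 shares 557 exonic bases with the antisense gene Gm48342. The peroxisomal thiolases Acaa1a and Acaa1b had log2 fold changes of 0.30 (SE 0.19) and 0.08 (SE 0.29), but their 3' ends match over 319 or more bases at over 98%, so the split is uncertain, and the sign of Acaa1b turned in 3 of 15 alternatives. Hadha, part of the trifunctional protein of fatty acid oxidation, was at 333 ± 29.0 CPM in trSrebf1 and 399 ± 29.2 in control (SD, n = 3 each; log2 fold change -0.26, SE 0.11, edgeR adjusted p = 0.0791), and passed as lower with upper-quartile factors (0.0321) and total counts (0.0194), in a range of 0.0194 to 0.288. Acaa2, the mitochondrial ketothiolase, and Hadhb, the partner of Hadha, had log2 fold changes of -0.53 (SE 0.27) and -0.48 (SE 0.32), and Acaa2 passed without trSrebf1 replicate 1 (edgeR adjusted p = 0.0352, in a range of 0.0352 to 0.550). Pseudogenes match the 3' end of Hadhb over 337 bases, so its value is uncertain.

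**Figure D4:**
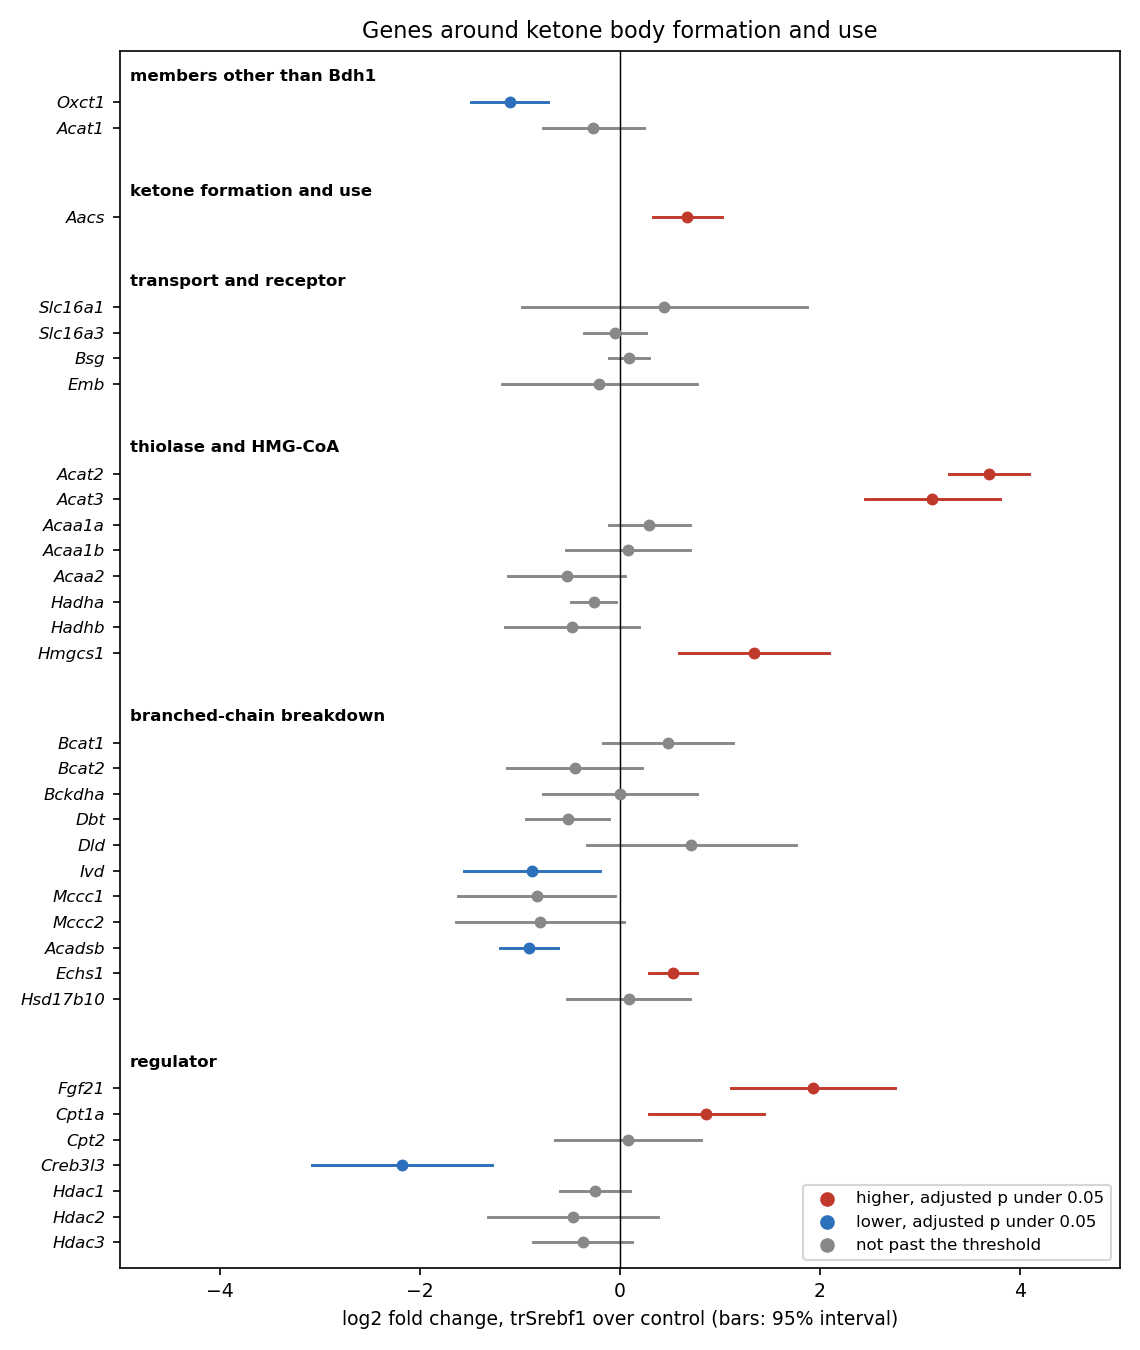
The log2 fold change of trSrebf1 over control (horizontal axis) with its 95% interval for Oxct1, Acat1 and each tested gene of the pathway lists, grouped by list from top to bottom. Red points passed the threshold as higher, blue as lower and grey did not pass, with Acat2 at 3.69 the highest and Creb3l3 at -2.18 the lowest.

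Breakdown of branched-chain amino acids, which feeds acetoacetate and HMG-CoA from leucine and acetyl-CoA through Acat1 from isoleucine, had 1 gene higher and 2 lower of 11 tested (median log2 fold change -0.45), and 30.2% of all tested genes were called in either direction, so this count is near the background. Acadsb, the dehydrogenase of the isoleucine branch, had 305, 205 and 305 tags in trSrebf1 and 495, 419 and 486 in control, with no overlap in CPM. It fell by 0.91 on the log2 scale (SE 0.14, edgeR adjusted p = 6.21e-05). Echs1, the hydratase that follows it and also serves fatty acid oxidation, rose by 0.53 (SE 0.11, edgeR adjusted p = 0.00157), and shares 142 exonic bases with Paox on the opposite strand. Ivd, the dehydrogenase of the leucine branch, had 22, 55 and 64 tags in trSrebf1 and 87, 76 and 78 in control and fell by 0.88 (SE 0.32, edgeR adjusted p = 0.0499), a call lost in 5 of 15 alternatives (leaving out any control replicate or trSrebf1 replicate 1, and the replicate block) with adjusted p between 0.00222 and 0.135 over all. Without trSrebf1 replicate 1, the library with 22 tags, its log2 fold change was -0.50. Dbt, of the branched-chain ketoacid dehydrogenase, was at -0.52 (SE 0.20, edgeR adjusted p = 0.0558) and passed in 6 of 15 alternatives, among them those without control replicate 3 and without trSrebf1 replicate 2 (0.0274 to 0.180 over all), and the leucine carboxylase subunits Mccc1 and Mccc2 were at -0.83 (SE 0.37) and -0.79 (SE 0.40) without passing, Mccc1 sharing exonic bases with antisense genes.

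The regulator list joined known regulators of ketone formation with the histone deacetylases Hdac1, Hdac2 and Hdac3, and none of these deacetylases passed. The list gave 2 higher and 1 lower of 7 tested (median log2 fold change -0.25, the value of Hdac1). Of all tested genes 17.2% were called higher and 13.0% lower. Fgf21, a hormone that in liver rises with fasting, had 46, 27 and 32 tags in trSrebf1 and 6, 5 and 14 in control and rose by 1.93 on the log2 scale (SE 0.39, edgeR adjusted p = 8.98e-04). Creb3l3, a membrane-bound factor that in liver acts on Fgf21 and fatty acid oxidation genes, had 7, 13 and 3 tags in trSrebf1 and 36, 27 and 35 in control. It fell by 2.18 (SE 0.43, edgeR adjusted p = 7.24e-04), and by 2.86 without trSrebf1 replicate 2. Cpt1a, which admits long-chain fatty acids to mitochondria, rose by 0.87 (SE 0.27, edgeR adjusted p = 0.0213), a call lost in 4 of 15 alternatives, each leaving out 1 library (control replicate 1 or 3, trSrebf1 replicate 1 or 2), with adjusted p between 0.0202 and 0.0930. Ppara, the nuclear receptor that switches on fatty acid oxidation genes in liver, had 14 tags in trSrebf1 and 20 in control, too few for the test. The histone deacetylase Hdac1, a class of enzymes that beta-hydroxybutyrate can inhibit, had a log2 fold change of -0.25 (SE 0.17, edgeR adjusted p = 0.288). No short-chain dehydrogenase of the family branch of Bdh1 passed the filter, and the 4 of 9 with a row (Rdh5, Rdh9, Dhrs9 and Sdr9c7) had 11 or fewer tags each.

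The 4 genes reported here (clone-type symbols left out) with profiles close to that of Bdh1, by root-mean-square distance of log2 (CPM + 0.5) centred per gene over the 6 libraries, were Ncan, Prr18, H2-Q10 and Bsnd, with distances of 0.38 to 0.61. They were picked by this contrast and are a description. For Ncan, Bsnd and H2-Q10, with 0 or 1 control tags, the added 0.5 largely sets the control value and so the distance. Prr18 averaged 159 ± 17.1 CPM in trSrebf1 and 0.848 ± 0.423 CPM in control (SD, n = 3 each). Bsnd, an accessory subunit of chloride channels, averaged 43.8 ± 8.48 CPM in trSrebf1 (SD, n = 3), with 0 tags in control. Ncan, a brain proteoglycan core protein, and H2-Q10, a class I histocompatibility gene, averaged 124 ± 10.1 and 71.0 ± 7.45 CPM in trSrebf1 (SD, n = 3), with 0 tags of Ncan and 1 of H2-Q10 in control. The 3' ends of Ncan and Prr18 hold stretches that match many other genes, so their values are uncertain. By the same distance Acat1 ranked 7227 and Oxct1 9622 of 10193 genes.

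**Figure D5:**
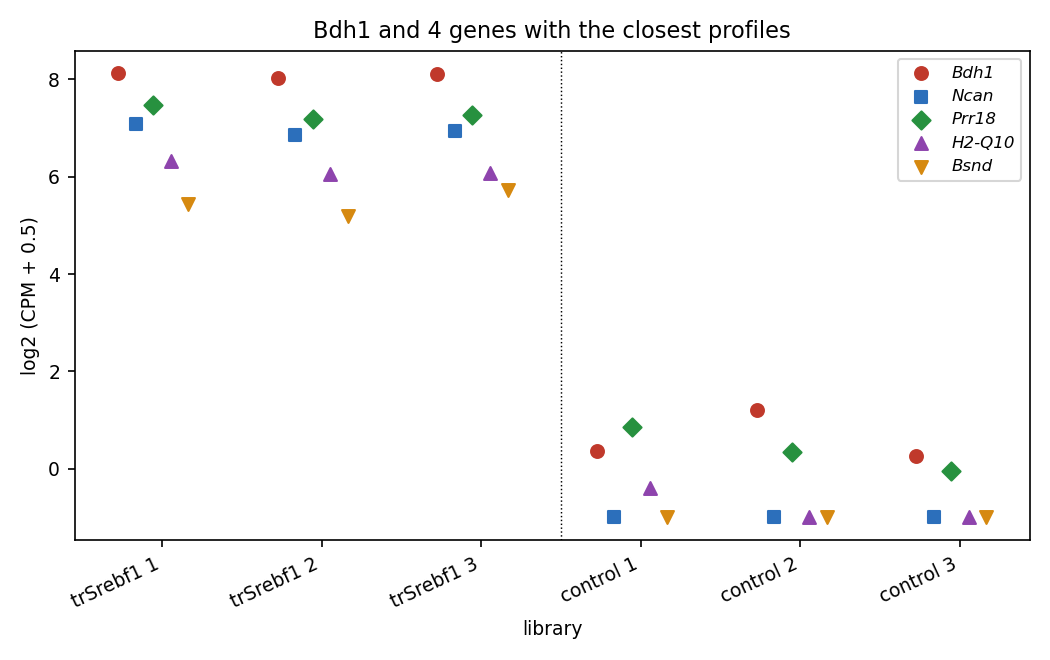
The log2 (CPM + 0.5) (vertical axis) of Bdh1 and 4 genes near to it in profile, in the 3 trSrebf1 libraries (left of the dotted line) and the 3 control libraries (right). Points of each gene differ far more between the groups than within a group. In control Bdh1 runs from 0.27 to 1.20 and Prr18 from -0.04 to 0.85, and points at -1 on the right are libraries with 0 tags.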

How the data were processed

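The authors deposited a table of raw counts for each library, with 1 row per gene symbol. Per the submitters' processing notes, Bowtie2 2.2.5 and mm10 are named without role or order. The counting tool, its annotation and strand setting: not given in the sources used here. The test on these counts was run in R 4.3.3 with edgeR 4.0.16 (TMM factors, filterByExpr with minimum count 10 and minimum total 15, robust glmQLFit, glmQLFTest, group as the only term), two-sided, with Benjamini-Hochberg adjustment over 10194 genes at 0.05. Limma 3.58.1 (voom) and DESeq2 1.42.0 served as alternatives. SE is the absolute log2 fold change over the root of the F statistic. Fold changes carry a prior count of 0.125. The test was checked on simulated counts. Intervals marked Clopper-Pearson cover counting error only.

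The members and the 6 lists (55 genes, 31 tested) were chosen with earlier results of these data known. Some genes of these lists and 1 gene of the nearest profiles are not reported here and are left out of the counts. Named genes were the members, Srebf1, every list gene past the threshold and, per list, the other tested gene with the highest mean CPM. Slc16a1, Slc16a3, Acaa1a, Acaa1b, Acaa2, Hadhb, Mccc1, Mccc2, the untested genes, neighbouring genes and both antisense genes were chosen after their values were seen. Bdh2 did not pass the filter, so the ratio of mean CPM replaced the planned test. Library pairs of 1 group had a chi-square of 4.52 to 8.13 over its degrees of freedom, above sampling noise, so no count table was taken as a copy of another. This does not show that the replicates came from separate mice or cultures, since amplification can add such spread. Coordinates are from GENCODE M21.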

Additional observations from a re-analysis of the deposited data

How the results depend on the processing

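The results were recomputed under 15 alternatives, of which 11 gave a value for Bdh2 and 14 for Mccc1, Mccc2 and Apod. Genes called higher numbered 1755, in a range of 1534 to 1977, and genes called lower 1328, in a range of 1061 to 1649. The call of Oxct1 held in all 15 (log2 fold change -1.23 to -0.96), as did that of Aacs, and Acat1 passed in none. Leaving out 1 library at a time moved Bdh1 between 7.67 and 8.46 on the log2 scale, the highest without control replicate 2, and Bdh2 between -2.30 and -1.39, the lowest in size without control replicate 1. It moved the lower calls among branched-chain genes between 1 and 3, the higher calls among regulators between 1 and 2, and the lower calls among thiolases between 0 and 1. Under total counts, and likewise under upper-quartile factors, the thiolase list had 1 lower call, Hadha. Among the left-out libraries Slc16a3 ranged from -0.18 to 0.0212 (without control replicate 1), and its sign also turned without control replicate 3 (0.002) and trSrebf1 replicate 1 (0.0113) or 2 (0.0048). Acaa1b turned with upper-quartile factors (-0.0036) and ranged from -0.0576 to 0.2423 over the left-out libraries, and Npat turned with limma-voom (-0.0301) and ranged from -0.2676 to 0.5057. The cause was not tested.

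With the replicate block, the branched-chain list kept 1 lower call, Acadsb, and lost Ivd (adjusted p = 0.0692), and 1646 genes were called higher and 1174 lower. Deviations of same-numbered libraries correlated at 0.01, -0.11 and -0.05, so the numbers were not taken to pair the libraries. Depth limits the low genes most, since Bdh1 in control and Bdh2 in both groups rest on 11 or fewer tags per library.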

Other observations

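Genes beside the other enzymes were looked up after the values of the enzymes were seen. Fbxo4, a ubiquitin ligase gene 46855 bases before Oxct1, had a mean of 33.1 CPM in trSrebf1 and 49.3 CPM in control, and fell by 0.57 on the log2 scale (SE 0.17, edgeR adjusted p = 0.0134), a call lost without control replicate 1 (0.0596) and without trSrebf1 replicate 3 (0.0767), where the lowest adjusted p of the alternatives was 0.00595. The nearer AW549877 had a log2 fold change of -0.61 (SE 0.31, edgeR adjusted p = 0.153). Beside Acat1, Npat and Cul5 had log2 fold changes of 0.14 (SE 0.36, edgeR adjusted p = 0.813) and -0.41 (SE 0.25, edgeR adjusted p = 0.244).

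The epithelial markers did not move together. Cdh1 had 14, 2 and 11 tags in trSrebf1 and 0, 1 and 0 in control, while Epcam, the marker used to deplete epithelial cells, had 1 tag in trSrebf1 and 1 in control. Krt8 had 0, 1 and 0 tags in trSrebf1 and 1, 3 and 2 in control, and Krt18 had 0, 2 and 0 in trSrebf1 and 0, 4 and 2 in control. Sftpc had 7, 14 and 5 tags in trSrebf1 and 2, 13 and 17 in control, Sftpb 27, 61 and 13 in trSrebf1 and 26, 14 and 35 in control, and Scgb1a1 15, 1 and 0 in trSrebf1 and 0, 1 and 2 in control. The part of these markers in the difference of Bdh1 was not tested.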
